A study of Homo sapiens with 6 samples.

Results

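The AP-1 transcription factor genes described here are 10 genes, JUN, JUNB, JUND, FOS, FOSL1, FOSL2, BATF, MAFF, MAFG and MAFK, chosen by gene name among the 9597 distinct names of an RNA-seq table of bladder cancer (BC) cells. All 10 were found and all 10 were above 0 in every library. The RNA came from 3 established human BC cell lines that carry a fusion of the receptor tyrosine kinase gene FGFR3. These were RT4 and RT112, labelled as FGFR3-TACC3 fusion lines, and SW780, labelled as an FGFR3-BAIBP2L1 fusion line. Each line was kept for 2 days with DMSO, the solvent control, or with quisinostat, an inhibitor of histone deacetylases (HDACs), at 50 nM in RT4, 10 nM in RT112 and 25 nM in SW780 cells. All cells grew in medium with serum, which was McCoy's 5A for RT4 and DMEM for RT112 and SW780, with glutamine and non-essential amino acids added for RT112. The table gives 1 library for each line and treatment, 6 in all, so a difference within a line has no replicate check, and line and dose, and for RT4 also the basal medium, cannot be told apart.

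AP-1 is a family of dimers that bind DNA through a basic region and hold together through a leucine zipper. JUN proteins can pair with each other or with FOS proteins, whereas FOS proteins need a JUN partner. BATF and the small MAF proteins (MAFF, MAFG and MAFK) lack a domain of their own for activating transcription, and small MAF proteins pair mostly with the CNC factors such as NFE2L2. Many AP-1 genes are induced within minutes by growth factors acting through MAP kinases, and in epithelial cells AP-1 is known for its part in proliferation, migration and the response to stress. HDAC inhibitors raise the acetylation of histones and of other proteins.

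The levels are FPKM, mapped fragments scaled to the length of the transcript and to the size of the library, so levels of different genes can be set side by side. The response in a line is the log2 ratio of FPKM in quisinostat over DMSO, and a limit of 0.3 is used in both directions. Ratios could be formed at 9112 of 10066 assembled loci, and their median was 0.08 for RT4, 0.06 for RT112 and 0.04 for SW780. All 14 listed urothelial or epithelial markers were found, and their summed level was lower with quisinostat in RT4 (1773 and 953 FPKM) and SW780 cells (1879 and 1058 FPKM) and higher in RT112 cells (1581 and 2492 FPKM). Single markers did not all follow the sum. KRT19 did, with 637 and 181 FPKM in RT4, 240 and 424 in RT112, and 395 and 202 in SW780 cells. EPCAM went the other way, with 62.4 and 94.6, 58.3 and 44.7, and 53.3 and 66.6 FPKM. None of the 4 leukocyte and 3 endothelial markers had a name in the table. Of 5 fibroblast markers, 3 were found, with sums from 1.16 to 135 FPKM over the DMSO libraries and from 10.2 to 135 FPKM over the quisinostat libraries. Of 5 genes listed as usual HDAC inhibitor responders that had ratios, only GSN, an actin-severing protein, was above 0.3 in all 3 lines (11.4% of all loci were). Its log2 ratios were 0.93, 2.79 and 1.5 in the order RT4, RT112, SW780, kept throughout. The ratio in SW780 cells rests on low levels, 0.130 and 0.367 FPKM. CDKN1A, an inhibitor of cell cycle kinases, had ratios of 0.12, 1.36 and 0.52. The others were mixed, with -1.90, 0.54 and -0.61 for the locus that TUBB3 shares with TCF25, 0.09, 2.62 and -0.32 for CLU and 1.1, 0.45 and -0.04 for H1F0. The medians over the 5 were 0.12, 1.36 and -0.04.

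JUN was higher with quisinostat in all 3 lines, and by more than 3-fold in each. JUND was also above the limit in all 3 lines, by less than 2-fold, though in RT112 cells its direction turned after a correction for GC content given below. FOSL2 and MAFF were below the limit in all 3. The other 6 members had ratios of unlike sign, or ratios near 0, in the 3 lines. So 2 of 10 members were above 0.3 in all lines, where 11.4% of all loci were, and 2 of 10 were below -0.3 in all lines, where 4.99% of all loci were. In RT4 cells 2 members were above the limit (40.3% of all loci) and 7 below it (33.5%), with a median ratio of -1.09 over the 10 genes. In RT112 cells the balance was the other way, with 6 above (36% of all loci), 3 below (25.2%) and a median of 0.89. In SW780 cells 4 were above (32.8%) and 4 below (28.2%), with a median of 0.02. These counts and medians are as deposited. After the correction for GC content the medians were -0.27, 0.07 and 0.23, so the balance within a line depends on it. The summed epithelial markers above, not corrected for GC content, were lower with quisinostat in RT4 and SW780 cells and higher in RT112 cells. The single markers did not all follow the sum. Their part in these ratios was not tested. Bulk RNA does not tell fewer expressing cells from less RNA per cell, and this holds for every level below.

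**Figure D1:**
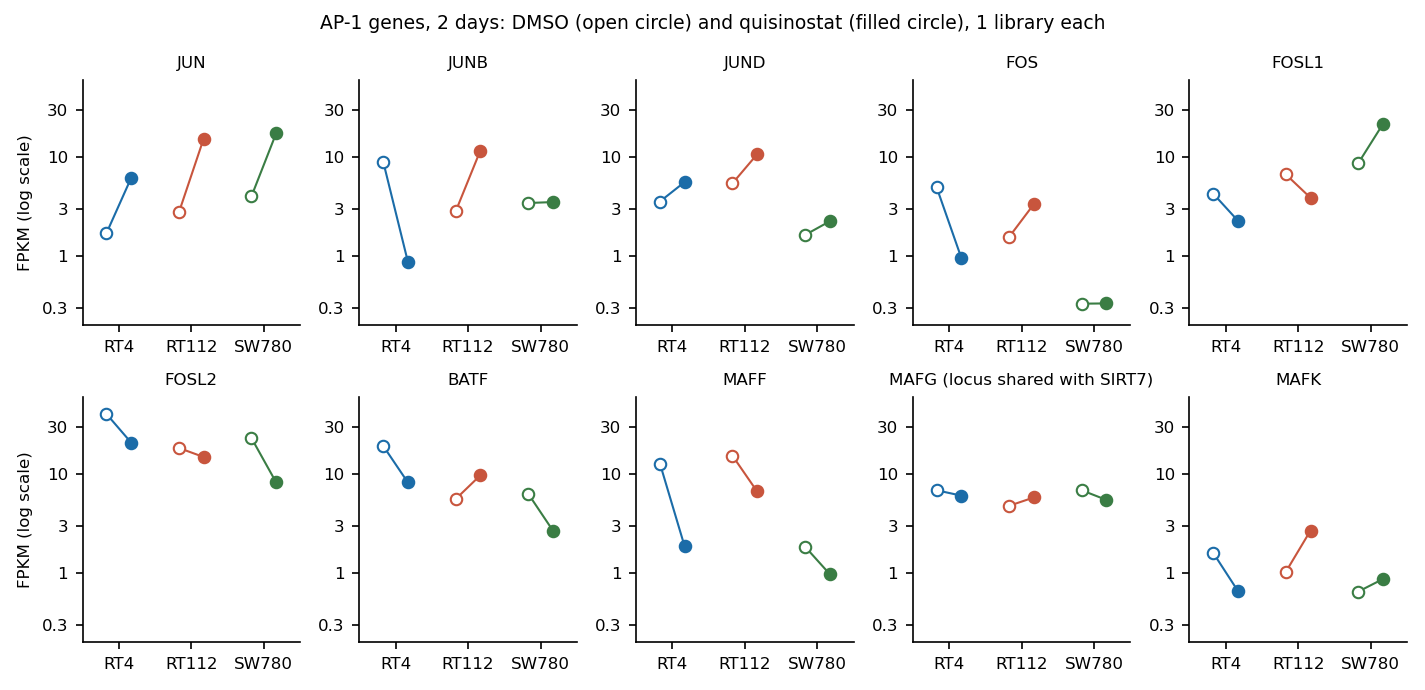
FPKM on a log axis for the 10 AP-1 genes in RT4, RT112 and SW780 cells, with 1 library per circle (open for DMSO, filled for quisinostat) and a line joining the libraries of a cell line. JUN had 1.70 and 6.13, 2.77 and 15.3, and 4.01 and 17.3 FPKM (DMSO and quisinostat), and FOSL2 and MAFF were lower with quisinostat in each line.

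The ratios also moved with the GC content of the transcripts, in opposite directions in different lines. Spearman's correlation between GC content and the log2 ratio was -0.50 for RT4, 0.44 for RT112 and -0.23 for SW780 over the 8258 loci that averaged 1 FPKM or more, given as a description across genes that share the same libraries. Among the 10 members the GC content of the longest coding transcript ran from 52.6% in FOS to 69.7% in JUND. Each ratio is therefore also given after a smooth curve on GC content was subtracted. With these corrected ratios JUN alone was above 0.3 in all 3 lines (11.6% of 8407 loci were), and FOSL2 and MAFF were below -0.3 in all 3 (7.58% of loci were). Within single lines, 3 members were then above 0.3 and 5 below -0.3 in RT4, 4 and 4 in RT112, and 5 and 3 in SW780 cells. The matching shares of all loci within a line were not counted after correction. How far GC content plays a part in any ratio was not tested.

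**Figure D2:**
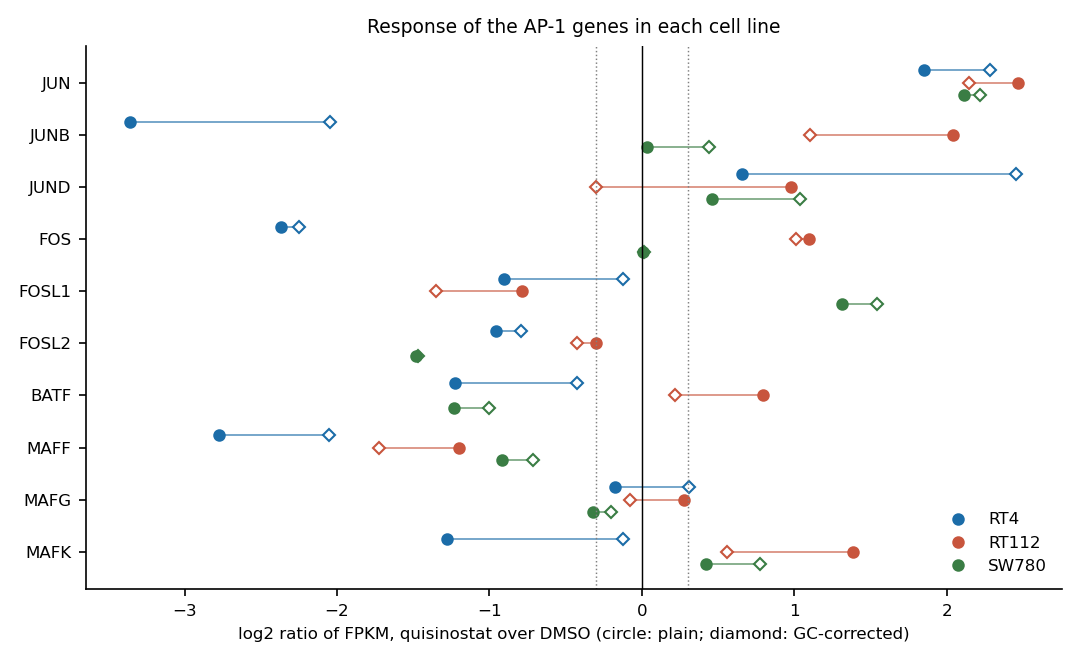
Log2 ratio of FPKM, quisinostat over DMSO, for each AP-1 gene and line (circle: as deposited, diamond: after subtraction of the trend with GC content, dotted lines at -0.3 and 0.3). JUN lies between 1.85 and 2.46 as deposited and between 2.14 and 2.28 after correction, whereas JUND in RT112 cells moves from 0.97 to -0.30 and JUNB keeps opposite signs in RT4 and RT112 cells.

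JUN, JUNB and JUND are short genes, and JUN and JUNB have no intron in GENCODE 29 on GRCh38. JUN lies on the minus strand of chromosome 1 (chr1:58780788-58784327) and was a locus of its own in the table. JUNB lies on chromosome 19 (chr19:12791496-12793315, plus strand), where it overlaps HOOK2 on the other strand, and JUND on the same chromosome (chr19:18279760-18281622, minus strand). RefSeq promoter windows on GRCh38.p14 were at hand for 8 members, and the 250 bases before the start of transcription were searched on both strands. The AP-1 site, TGACTCA or TGAGTCA, was in none of the members' windows and in 4.2% of all 35116 windows. The cAMP response element (CRE), TGACGTCA, at which AP-1 and ATF dimers can also bind, was in JUND and MAFF and in 1.65% of all windows. The variant TGACATCA, read as TGATGTCA on the other strand and well known from the JUN promoter, was in JUN and in 2.37% of all windows. ATF3, an AP-1 partner described below, also had it. These stretches of 30 bases are shown because they hold the letters found in members that lay on the same side of the limit in all 3 lines, and in ATF3, with the match in capitals. They lie 67 (JUN), 200 (JUND), 54 (MAFF) and 123 (ATF3) bases before the RefSeq start, counted to the first base of the match. A match is a run of letters and not a measured binding site.
JUN, chr1:58784096-58784125, minus strand: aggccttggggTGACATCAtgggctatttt
JUND, chr19:18281804-18281833, minus strand: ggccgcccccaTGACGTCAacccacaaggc
MAFF, chr22:38201929-38201958, plus strand: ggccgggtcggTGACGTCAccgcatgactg
ATF3, chr1:212565273-212565302, plus strand: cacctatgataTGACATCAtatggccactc
The RefSeq start of JUN lies 280 bases inside the gene as GENCODE 29 draws it, while the start of JUND is the same in both. That of FOSL2, whose window held none of the letters searched, lies 410 bases inside. The 250-base windows of JUN and FOSL2 therefore lie wholly within the GENCODE genes. RefSeq gives MAFF and ATF3 2 starts each. The windows shown belong to the first, 1227 (MAFF) and 73 (ATF3) bases inside the GENCODE gene, and the windows at the second, 2253 and 49684 bases inside, held none of these letters. The 250 bases before the JUND start are given in full, because JUND had the most GC-rich window of the 8 members (74.8%, against a median of 58% over all windows), again with the CRE in capitals.
JUND, chr19:18281623-18281872, minus strand: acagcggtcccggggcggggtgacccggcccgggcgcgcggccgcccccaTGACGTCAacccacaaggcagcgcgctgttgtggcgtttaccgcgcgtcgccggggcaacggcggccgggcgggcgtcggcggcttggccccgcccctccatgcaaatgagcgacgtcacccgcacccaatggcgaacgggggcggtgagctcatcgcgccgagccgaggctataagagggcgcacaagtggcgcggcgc

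JUN, the founding subunit and the strongest activator of its family, had 1.70 FPKM (RT4), 2.77 FPKM (RT112) and 4.01 FPKM (SW780) with DMSO. With quisinostat it had 6.13, 15.3 and 17.3 FPKM. The treated and control libraries did not overlap, since the lowest treated library (RT4) was above the highest control library (SW780). The share of all loci without such an overlap was not counted, so here and below this is a description only. These are folds of 3.6, 5.52 and 4.32, and log2 ratios of 1.85, 2.46 and 2.11, which were higher than those of 92.6%, 97.1% and 97.0% of loci. After correction for GC content the ratios were 2.28, 2.14 and 2.21. JUN was the only member above 1 in all 3 lines, where 3% of all loci were. When the lines were used as replicates in limma on log2(FPKM + 1), a scale that understates the change of low genes, its log2 fold change was 1.79 with a standard error of 0.24. In that fit its unadjusted p was 0.000426, place 17 among 9430 loci, and its adjusted p was 0.226 (limma, Benjamini-Hochberg), so JUN did not pass 0.05. The loci with a single gene name whose 3 ratios lay nearest to those of JUN were NECAP1, TP53INP2 and C16orf45, at distances of 0.19, 0.23 and 0.42 over the 3 log2 ratios among 8001 loci.

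JUND, which is known for a steadier and more widespread expression than JUN, had 3.55, 5.42 and 1.63 FPKM with DMSO and 5.58, 10.6 and 2.24 FPKM with quisinostat. The treated library was the higher one in each line, but treated and control libraries overlapped across lines. Its log2 ratios of 0.65, 0.97 and 0.46 became 2.45, -0.30 and 1.03 after correction for GC content, so its direction in RT112 cells depends on that correction. Across the lines limma gave a log2 fold change of 0.56 on the same log2 scale (standard error 0.25, adjusted p = 0.378, between 0.370 and 0.989 over 8 other settings). The nearest loci by ratio were HLA-E, NFKBIE and C4orf19.

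JUNB, which often opposes JUN at promoters with a lone AP-1 site, was the member with the widest spread of ratios. It had 8.98 FPKM with DMSO and 0.876 with quisinostat in RT4 cells, 2.83 and 11.6 in RT112 cells, and 3.43 and 3.51 in SW780 cells. The level was thus 10.2-fold lower in RT4 cells and 4.11-fold higher in RT112 cells, while the log2 ratio in SW780 cells was 0.03. Only 0.713% of loci had a lower ratio than JUNB in RT4 cells, while 95.8% had a lower ratio in RT112 cells. After correction for GC content the ratios were -2.04, 1.10 and 0.44, so the opposite signs in RT4 and RT112 cells remained. Limma across the lines gave -0.22 on the log2(FPKM + 1) scale with a standard error of 0.75 and an adjusted p of 0.914. The nearest loci by ratio were C19orf12, SCAND1 and NCDN, at distances of 0.38, 0.64 and 0.75.

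The make-up of the JUN family differed between treated and control libraries in each line. JUN made up 12.0% of the summed FPKM of JUN, JUNB and JUND with DMSO and 48.7% with quisinostat in RT4 cells. In RT112 cells its share was 25.2% and 40.7%, and in SW780 cells 44.2% and 75.1%. By the deposited FPKM, JUN was therefore the largest of the 3 in each quisinostat library, where with DMSO this was JUNB in RT4 cells, JUND in RT112 cells and JUN in SW780 cells. JUNB made up 63.1% of the sum without and 6.96% with quisinostat in RT4 cells. Its shares were 25.7% and 31.0% in RT112 cells, and 37.8% and 15.2% in SW780 cells. The sum of the family was 14.2 FPKM with DMSO and 12.6 with quisinostat in RT4 cells, 11 and 37.6 in RT112 cells, and 9.07 and 23.1 in SW780 cells. As deposited, the JUN family as a whole was thus higher in RT112 and SW780 cells and a little lower in RT4 cells. These shares and sums were not corrected for GC content. In RT4 cells that correction moved the log2 ratio of JUN from 1.85 to 2.28, of JUNB from -3.36 to -2.04 and of JUND from 0.65 to 2.45. The direction of the RT4 sum, and which gene is the largest there, may therefore depend on it.

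**Figure D3:**
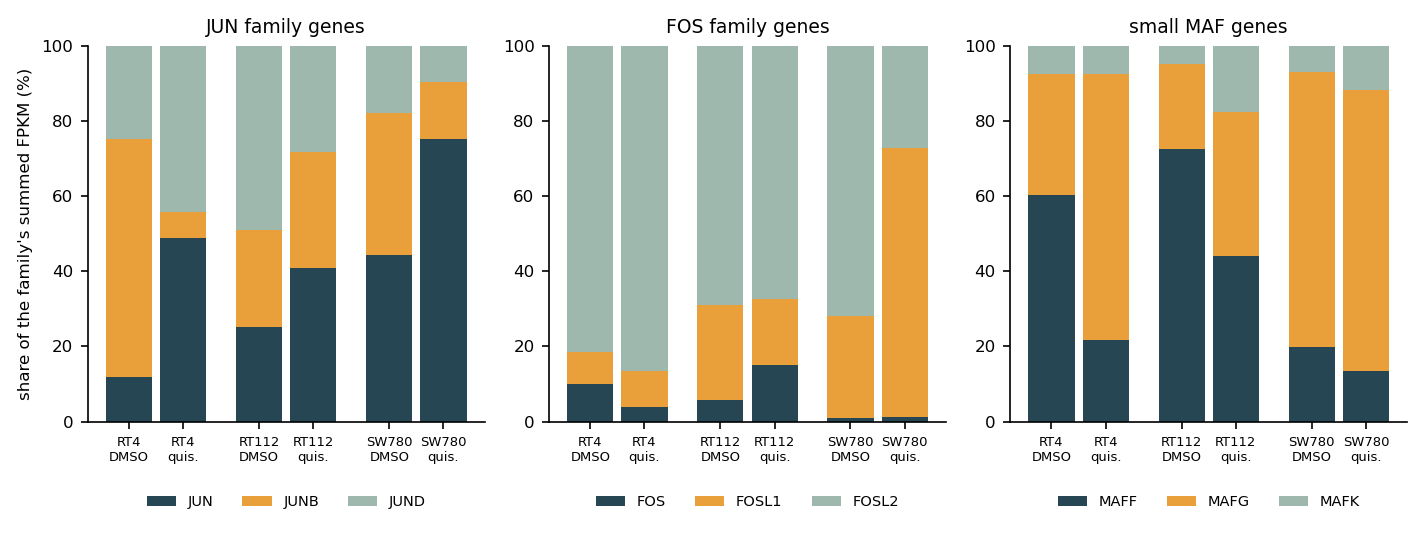
Share (%) of each gene in the summed FPKM of its family, for the JUN family, the FOS family and the small MAF genes, with 1 bar per library (quis., quisinostat) and MAFG standing for a locus it shares with SIRT7. The share of JUN is larger with quisinostat in each line, FOSL1 and FOSL2 exchange places in SW780 cells (27.0% and 72.0% with DMSO, 71.5% and 27.4% with quisinostat), and the share of MAFF is smaller in each line. The shares are of FPKM as deposited, without the correction for GC content.

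The FOS family was dominated by FOSL2 before treatment. FOSL2 is on chromosome 2 (chr2:28392448-28417312, plus strand), with an antisense and a sense intronic transcript annotated within it, and encodes FRA-2, a FOS relative without the strong activation domain of FOS. It was the most highly expressed of the 10 members in all 3 DMSO libraries, at 40.7, 18.4 and 23.2 FPKM. With quisinostat it had 20.9, 14.9 and 8.28 FPKM, and the control and treated libraries overlapped across lines. These are levels 1.94-fold, 1.23-fold and 2.80-fold lower. The log2 ratios were -0.96, -0.30 and -1.48, with the ratio in RT112 cells just past the limit and inside it once a pseudocount of 0.1 FPKM was added (-0.299). After correction for GC content they were -0.79, -0.42 and -1.47. Limma across the lines gave -0.86 on the same log2 scale (standard error 0.26, unadjusted p = 0.0172, adjusted p = 0.315).

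FOSL1, which encodes FRA-1 and is known as a target of MAP kinase signalling in carcinoma cells and lies on chromosome 11 (chr11:65892049-65900573, minus strand), was the only member with a ratio past the limit upwards in SW780 and downwards in both other lines. Its level was 8.70 FPKM with DMSO and 21.7 with quisinostat in SW780 cells, 2.49-fold higher. In RT4 cells it was 4.24 and 2.26 FPKM and in RT112 cells 6.66 and 3.87 FPKM, so it was lower there. The log2 ratios were -0.91, -0.78 and 1.31, and -0.12, -1.35 and 1.54 after correction for GC content, so in RT4 cells the ratio then lay inside the limit. FOSL1 became the most highly expressed member in the SW780 quisinostat library. In limma its fold change across lines was -0.04 (standard error 0.43, adjusted p = 0.972).

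FOS, the classical partner of JUN and an immediate early gene, was low in most libraries. FOS lies on chromosome 14 (chr14:75278774-75282230, plus strand). Its levels were 4.93 FPKM with DMSO and 0.957 with quisinostat in RT4 cells, 1.56 and 3.34 in RT112 cells, and 0.330 and 0.332 in SW780 cells. The level was 5.15-fold lower in RT4 cells and 2.14-fold higher in RT112 cells, and the log2 ratios of -2.37, 1.10 and 0.01 hardly moved with the GC correction (-2.25, 1.01 and 0.01). FOS and JUNB thus had the same order of ratios across lines, lowest in RT4 and highest in RT112 cells. JUN and MAFK had this order too as deposited, but not after correction for GC content. Limma across the lines gave -0.28 for FOS (standard error 0.51, adjusted p = 0.829). FOSB, the remaining gene of the FOS family, has no value in the table used here.

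Set against each other, the JUN family made up a larger part of these transcripts after treatment. The summed FPKM of JUN, JUNB and JUND was 0.286 times that of FOS, FOSL1 and FOSL2 in RT4 cells with DMSO and 0.522 times with quisinostat. In RT112 cells this ratio was 0.414 and 1.70, and in SW780 cells 0.282 and 0.763. Treated and control libraries did not overlap in it. The FOS family summed to 49.8 FPKM with DMSO and 24.1 with quisinostat in RT4 cells, 26.6 and 22.2 in RT112 cells, and 32.2 and 30.3 in SW780 cells. These sums are of RNA, were not corrected for GC content and were chosen after the levels had been seen.

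**Figure D4:**
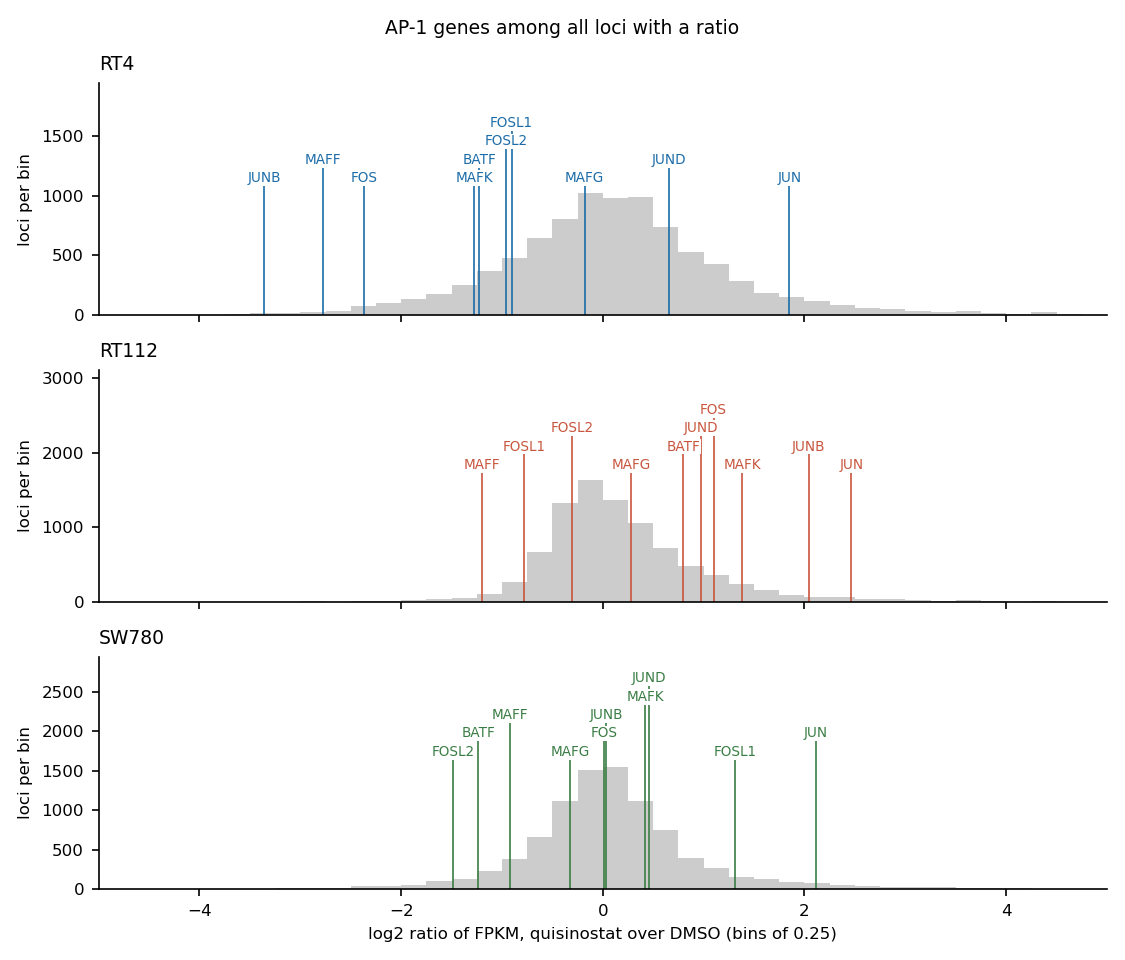
Histograms of the log2 ratio at the 9112 loci in each cell line (bins of 0.25, loci beyond the axis not drawn), with a coloured line at the ratio of each AP-1 gene. JUN lies in the upper tail in each line (above 92.6%, 97.1% and 97.0% of loci), whereas JUNB, FOS and MAFF lie in the lower tail in RT4 cells.

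BATF, best known from lymphocytes, where it pairs with JUN proteins, was expressed in all 3 epithelial lines. It lies on chromosome 14 (chr14:75522425-75547015, plus strand). Its level was 19.4 FPKM with DMSO and 8.27 with quisinostat in RT4 cells, and 6.35 and 2.70 in SW780 cells, but 5.62 and 9.77 in RT112 cells. BATF was thus 2.34-fold and 2.35-fold lower in RT4 and SW780 cells and 1.74-fold higher in RT112 cells. The log2 ratios of -1.23, 0.80 and -1.24 became -0.42, 0.22 and -1.0 after correction for GC content, with RT112 then inside the limit. Limma across the lines gave -0.47 (standard error 0.40, adjusted p = 0.601), and -0.15 without RT4, -1.06 without RT112 and -0.22 without SW780.

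Of the small MAF genes, MAFF was lower with quisinostat in each line. MAFF is the stress-inducible member of its group and lies on chromosome 22 (chr22:38200767-38216511, plus strand), where it overlaps PLA2G6 on the other strand. It had 12.8 FPKM with DMSO and 1.87 with quisinostat in RT4 cells, 15.4 and 6.71 in RT112 cells, and 1.86 and 0.983 in SW780 cells. These levels are 6.85-fold, 2.30-fold and 1.89-fold lower, and treated and control libraries overlapped, since the control library of SW780 was low. Only 1.25%, 2.51% and 8.47% of loci had a lower ratio than MAFF. Its log2 ratios were -2.78, -1.20 and -0.92, and -2.05, -1.72 and -0.72 after correction for GC content. Limma across the lines gave -1.30 on the same log2 scale (standard error 0.38, unadjusted p = 0.0154, adjusted p = 0.311), and -0.81 with RT4 left out. The nearest loci by ratio were NSUN4, CENPV and MYC, at distances of 0.49, 0.52 and 0.57.

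MAFK (chr7:1530714-1543043, plus strand, overlapping TMEM184A) was the least expressed small MAF gene in each DMSO library. It had 1.60 FPKM with DMSO and 0.659 with quisinostat in RT4 cells, 1.04 and 2.70 in RT112 cells, and 0.654 and 0.875 in SW780 cells. The log2 ratios were -1.28, 1.38 and 0.42, and -0.12, 0.56 and 0.77 after correction for GC content, so the low ratio in RT4 cells then lay inside the limit. MAFG (chr17:81918270-81927714, minus strand) shares an assembled locus with SIRT7, and their reads cannot be told apart. With DMSO and quisinostat that locus had 6.89 and 6.08 FPKM (RT4), 4.8 and 5.83 FPKM (RT112), and 6.89 and 5.51 FPKM (SW780), with log2 ratios of -0.18, 0.28 and -0.32, and 0.31, -0.08 and -0.20 after correction for GC content, so the sign turned in RT4 and RT112 cells. Limma across the lines gave 0.13 for MAFK (standard error 0.41, adjusted p = 0.905) and -0.07 for the MAFG locus (standard error 0.23, adjusted p = 0.915). MAFF made up 60.2% of the summed small MAF FPKM with DMSO and 21.8% with quisinostat in RT4 cells, 72.5% and 44% in RT112 cells, and 19.8% and 13.3% in SW780 cells.

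Over the 10 members, limma called none at an adjusted p of 0.05, and it called 0% of the 9430 loci tested. At an unadjusted p under 0.05, JUN was higher (9.68% of loci were), and FOSL2 and MAFF were lower (4.16% of loci were). Each of these 3 genes had the same direction in 3 of 3 lines. JUN kept an adjusted p between 0.0712 and 0.973 over 9 other settings of the fit, FOSL2 between 0.0902 and 0.989, and MAFF between 0.161 and 0.973. The differences between lines at JUNB, FOS, FOSL1, BATF and MAFK were not tested, because each line has 1 library per treatment.

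Of 11 other AP-1 subunits that were listed, 5 were found, and ATF3 and MAF were above 0.3 in all 3 lines (11.4% of all loci were) and also above 1 (3% of loci), while none was below -0.3 (4.99%). ATF3, a stress-induced factor that pairs with JUN, had 0.445, 0.682 and 1.31 FPKM with DMSO and 4.66, 6.79 and 4.69 FPKM with quisinostat. Its treated and control libraries did not overlap, its log2 ratios were 3.39, 3.31 and 1.84, and limma gave 1.83 (standard error 0.31, adjusted p = 0.226). MAF, a large MAF protein with an activation domain, had 0.393, 0.192 and 0.0378 FPKM with DMSO and 2.57, 0.996 and 1.46 FPKM with quisinostat, and its mean level was too low for the limma fit. ATF2, a partner of JUN at CRE sites, had log2 ratios of 0.41, -0.07 and 0.12, and its relative ATF7 had -0.53, 0.00 and -0.18. MAFA, listed between 0.00758 and 0.688 FPKM, had ratios of 0.01, 2.4 and 0.93.

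Among 36 genes listed as known AP-1 targets, 26 were found and 25 had ratios in all lines. Of these, 9 were above 0.3 in all 3 lines, where 11.4% of all loci were, and 2 were below -0.3 (4.99% of all loci). Those above included MMP10, MMP13, PLAUR, CXCL8, AREG, FN1 and LAMA3, and the 2 below were SPRR3 and VEGFA. Some ratios rest on low DMSO levels, such as 0.0198 FPKM for PLAUR and 0.197 for CXCL8 in RT112 cells and 0.0755 for MMP10 in SW780 cells. PLAUR in RT4 (0.301) and MMP13 in RT112 cells (0.318) were just past the limit. The genes named include genes for matrix, proteases that cut it and secreted signals. LAMA3, a chain of laminin-332 in the basement membrane, had 2.41, 4.07 and 11.7 FPKM with DMSO and 15.7, 14.5 and 54.4 FPKM with quisinostat, so that treated and control libraries did not overlap. In limma LAMA3 had a log2 fold change of 2.01 (standard error 0.22, adjusted p = 0.176). FN1, fibronectin, had log2 ratios of 3.4, 2.34 and 1.26, the chemokine CXCL8 4.02, 2.64 and 2.31, and the EGFR ligand AREG 4.61, 1.13 and 2.51. SPRR3, a protein of the cornified envelope, had -1.20, -1.23 and -1.89. The median over the 25 genes was 0.17 for RT4, 0.48 for RT112 and 1.57 for SW780, beside 0.08, 0.06 and 0.04 over all loci. Such genes answer to many factors, and whether their levels depend on AP-1 was not tested.

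**Figure D5:**
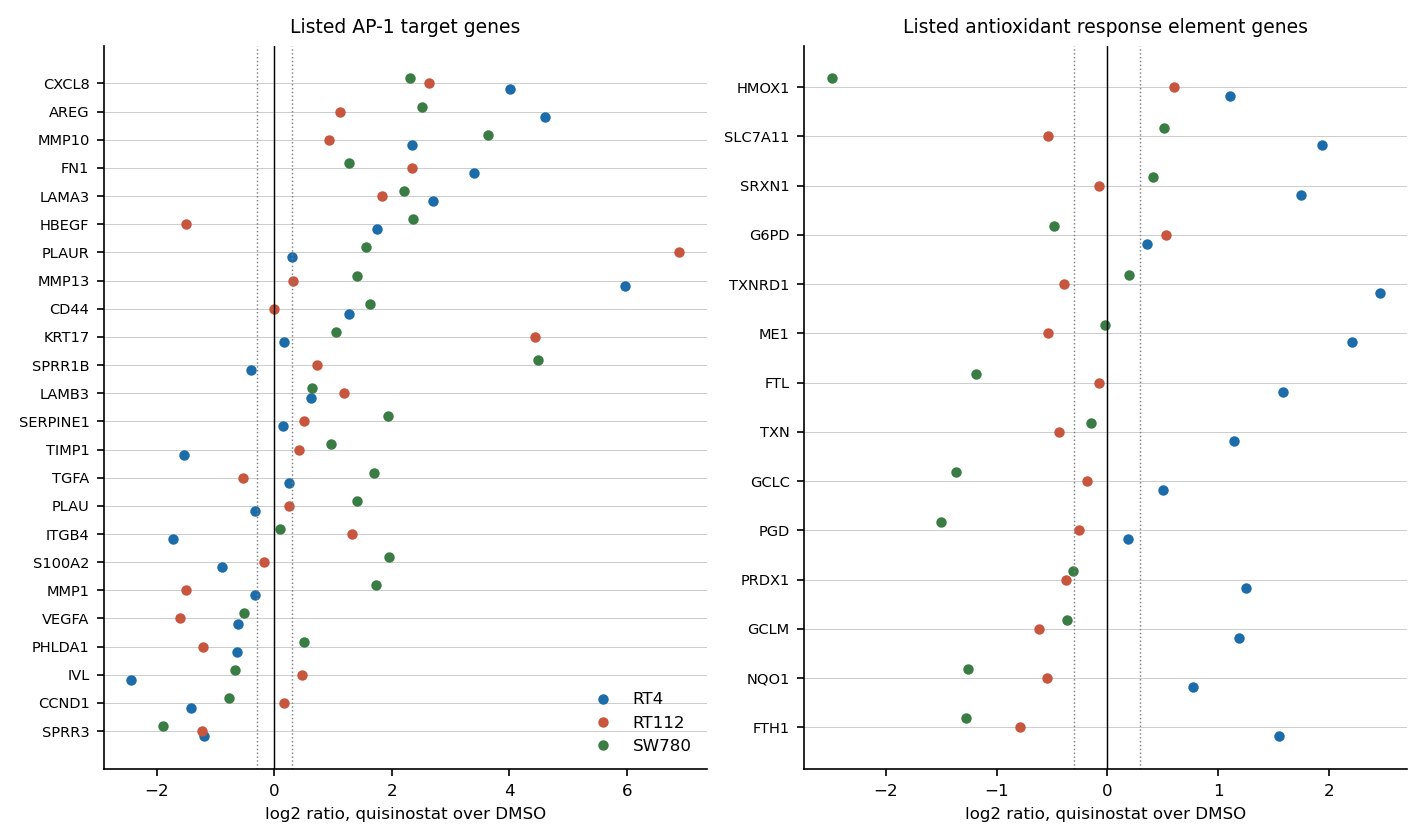
Log2 ratio of FPKM, quisinostat over DMSO, for listed AP-1 target genes (left, 1 gene not shown) and listed genes with an antioxidant response element (right), with 1 point per cell line and dotted lines at -0.3 and 0.3. LAMA3, FN1, CXCL8 and AREG lie above 1 in all lines, and the antioxidant genes have a median of 1.22 in RT4 cells but -0.38 in RT112 and -0.42 in SW780 cells.

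Of 6 listed CNC partners of small MAF proteins, 4 were found, and BACH1, which represses antioxidant genes together with small MAF proteins, was above 0.3 in all 3 lines (0.50, 0.53 and 0.64, where 11.4% of all loci were), though none was after correction for GC content. NFE2L2, the main activator of these genes, had 55.4, 44 and 56.1 FPKM with DMSO and 59.3, 50.4 and 35.2 FPKM with quisinostat. Of 15 listed antioxidant response element genes, 14 had ratios, and none was past 0.3 in the same direction in all 3 lines. In RT4 cells 13 of the 14 were above 0.3 (40.3% of all loci) and none below -0.3 (33.5%). In RT112 cells 2 were above (36%) and 8 below (25.2%), and in SW780 cells 2 were above (32.8%) and 9 below (28.2%). The thioredoxin reductase gene TXNRD1, for example, had log2 ratios of 2.46, -0.39 and 0.19. MAFF was lower in all 3 lines while the median of these genes was 1.22 for RT4, -0.38 for RT112 and -0.42 for SW780.

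Upstream of AP-1, 20 of 23 listed kinases were found. The counts that follow stand beside 11.4% of all loci above 0.3 and 4.99% below -0.3 in all 3 lines. MAP3K1, a kinase above JNK, was above 0.3 in all 3 lines (0.85, 0.58 and 0.97), and none was below -0.3 in all lines. MAPK14, the p38 kinase, had ratios of 0.53, 0.15 and 0.14. Of 13 coactivators and degradation factors with ratios, CREBBP alone was below -0.3 in all 3 lines (-1.27, -0.48 and -0.52), at a locus it shares with TRAP1. NACA, at a locus it shares with PRIM1, had -0.23, -0.51 and -0.22. Among 17 immediate early genes and their regulators with ratios, 4 were above 0.3 in all lines (EGR1, KLF10, GADD45B and ELK3) and 2 below -0.3 (ELK4, at a locus it shares with SLC45A3, and MYC). GADD45B, a stress-response gene, had 0.52, 1.94 and 0.78. Limma gave none of the genes of these lists that it tested an adjusted p under 0.05.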

How the data were processed

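RNA was measured in 6 libraries, 1 for each of 3 cell lines and 2 treatments. Per the labels, polyadenylated RNA was made into stranded libraries, and the submitters' processing notes name CASAVA 1.8.2, Trimmomatic 0.36, HISAT2 2.2.1, SAMtools 1.15.1, StringTie 2.2.1 and GRCh38. The study's methods add Ballgown. The deposited values are FPKM, which the authors had already divided by transcript length and mapped fragments. The annotation release, the rule for the rows and the strand setting are not given in the sources used here, and the depth is unknown, so no counting interval was formed. The label of the SW780 quisinostat library gives its line with another number in 1 field, and its title was used.

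Each assembled locus entered once, and log2 ratios were formed without a pseudocount at loci above 0 in all 6 libraries. With 1 library per group no test was made within a line. Limma 3.58.1 in R 4.3.3 took log2(FPKM + 1) at the loci averaging 1 FPKM or more, blocked by cell line (both libraries of a pair come from the same line), with the trend option and p-values adjusted over all loci by Benjamini-Hochberg. GC content came from the longest coding transcript in GENCODE 29, which 92.3% of loci had, and a lowess curve (span 0.3) was subtracted in each line. Both steps were tested on simulated data with planted changes that were the same in every line. Those runs do not cover responses that differ between lines or genes at low levels. Promoter letters are from RefSeq.

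The members and all gene lists were chosen with earlier results of these data known. Named genes are the 10 members, every other AP-1 subunit found, and in the other lists the genes past 1 in all lines or the pair with the largest weakest ratio of 1 sign. Genes named beyond this rule (TUBB3, CLU, H1F0, MMP10, MMP13, PLAUR, VEGFA, NFE2L2, TXNRD1, EGR1, KLF10, ELK3 and MYC among them) were named after their values were seen, as was the choice of the TGACATCA letters. Alternatives were pseudocounts of 0.1 and 1, thresholds of 0.5 and 1, filters, centring, rescaling, the GC correction, other limma settings and leaving out a line. Python 3.11.15 was used. The values of 1 listed AP-1 target gene are not reported here, and the counts over its list include it.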

Additional observations from a re-analysis of the deposited data

Results flagged for a closer look

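The following AP-1 genes lay past 0.3 on the log2 scale in opposite directions in different lines. Each value rests on 1 library per treatment, dose differs with line and the basal medium of RT4 differs from that of RT112 and SW780, and the differences were not tested. JUNB had -3.36 in RT4 and 2.04 in RT112 cells. FOS had -2.37 in RT4 and 1.10 in RT112 cells. FOSL1 had -0.91 in RT4 and -0.78 in RT112 cells against 1.31 in SW780 cells. BATF had -1.23 in RT4 and -1.24 in SW780 cells against 0.80 in RT112 cells. MAFK had -1.28 in RT4 cells against 1.38 in RT112 and 0.42 in SW780 cells. After correction for GC content the opposite directions remained past 0.3 for JUNB (-2.04 and 1.10) and FOS (-2.25 and 1.01), and for FOSL1 in RT112 against SW780 cells (-1.35 and 1.54). BATF in RT112 cells (0.22) and MAFK in RT4 cells (-0.12) then lay inside the limit.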

How the results depend on the processing

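Of 30 ratios (10 members in 3 lines), 23 stayed on their side of the limit of 0.3 after the GC correction, 29 with a pseudocount of 0.1, 27 with a pseudocount of 1, 29 with equal library sums and 30 with centring. With the GC correction JUND turned to -0.304 in RT112 cells, JUNB came to 0.44 in SW780, FOSL1 to -0.12 in RT4, BATF to 0.22 in RT112, MAFG to 0.31 in RT4 and -0.20 in SW780, and MAFK to -0.12 in RT4 cells. FOSL2 in RT112 cells came to -0.299 with a pseudocount of 0.1 and -0.28 with 1. MAFG in SW780 cells came to -0.28 with a pseudocount of 1 and -0.29 after rescaling, and MAFK there to 0.18 with a pseudocount of 1. The cause of these shifts was not tested.

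Members above the limit in all lines numbered 2, but 1 (JUN) after the GC correction and at thresholds of 0.5 and 1, and between 2 and 3 with a line left out. Members below it numbered 2, but 1 (MAFF) with either pseudocount and at 0.5, 0 at 1, and between 2 and 3 with a line left out. In the lists, at a threshold of 1 the counts above became 0 for the CNC partners, other bZIP factors, kinases, immediate early genes and HDAC inhibitor genes and 4 for the AP-1 targets. The counts below became 0 for other bZIP factors, coactivators and immediate early genes and 1 for the AP-1 targets. With the GC correction the counts above became 0 for the CNC partners and 2 for HDAC inhibitor genes, and the counts below 4 for other bZIP factors and 2 for coactivators. The count of other AP-1 subunits above the limit became 3. As a share of all 10 members, JUN had 1.62% and 11.4% in RT4, 4.30% and 18% in RT112, and 7.04% and 27.4% in SW780 cells (DMSO, then quisinostat).

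Limma called 0 loci higher and 0 lower, with 913 and 392 at an unadjusted p under 0.05. Its calls ran from 1 to 48 higher and from 0 to 18 lower with a line left out, the most without RT112, and no member was among them. Without the pairing by line (no replicate block) limma also called 0 and 0, and JUN had 1.79 with an adjusted p of 0.973. With a line left out, 2 pairs of libraries remain, and the log2 fold change in limma ran from -1.19 to 0.87 for JUNB, from -0.80 to 0.38 for FOS, from -0.67 to 0.28 for FOSL1, from -0.22 to 0.039 for MAFG, from -1.68 to -0.81 for MAFF and from -1.06 to -0.15 for BATF. MAFK had 0.52 without RT4 and 0.11 without SW780, and was under the level filter without RT112. The sign turned without RT4 for JUNB, FOS and FOSL1 (0.28), without RT112 for FOSL1 (0.27) and without SW780 for MAFG, and with quantile normalization for MAFK (-0.089). The depth of the libraries is unknown, so how far it limits low genes such as FOS in SW780 cells cannot be given.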

Other observations

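Of 24 listed leucine zipper factors outside AP-1, 17 were found and 16 had ratios, of which 2 were above 0.3 in all 3 lines (11.4% of all loci were) and 2 below -0.3 (4.99%). ATF1, a CREB relative, was below -0.3 in all 3 lines (-1.25, -0.97 and -0.65 in RT4, RT112 and SW780 cells), with a limma log2 fold change of -0.74 (standard error 0.24, adjusted p = 0.319). CREBZF was below -0.3 in all lines as well (-1.46, -1.08 and -0.33). CREB3, a factor anchored in the membrane of the endoplasmic reticulum, was above 0.3 in all lines (0.69, 0.60 and 0.49), and so was CREBL2 (1.38, 0.47 and 0.71). After correction for GC content CREB3 had 1.12, 0.29 and 0.59, with RT112 then inside the limit. CREBZF and CREBL2 were named after their values were seen.

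LUM, a proteoglycan gene usually read as a fibroblast marker, accounted for most of the fibroblast marker sum in RT112 cells, with 135 FPKM with DMSO and 133 with quisinostat. It was listed at 0 and at 3.57 FPKM in RT4 cells and at 8.18 and 14.2 FPKM in SW780 cells. COL1A1 was higher with quisinostat in each line, with 0.0342 and 0.474 FPKM in RT4, 0.173 and 1.45 in RT112, and 0.0558 and 0.504 in SW780 cells. All 6 libraries came from BC cell lines, and the part of these genes in the AP-1 values was not tested.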
